A study of Mus musculus with 24 samples.

Results

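Protein-protected sites (PPSs) of uninduced MEL cells were compared between the nuclease that cuts single-stranded RNA (ssRNase) and the nuclease that cuts double-stranded RNA (dsRNase). MEL is a mouse erythroleukemia line, a model of early red cell precursors that matures toward red cells once DMSO is added to the culture. All samples compared here were collected at day 0, before DMSO was added, and all were crosslinked with formaldehyde. Only a closing section on flagged results also uses the lists of day 2 and day 4, collected after DMSO was added. Each of the 2 replicates had been split into footprinting libraries (RNase first, protein removal second) and structure-only libraries (protein removal first), and each of these into an ssRNase portion (RNaseONE, 100 U/ml, 1 h at room temperature) and a dsRNase portion (RNase V1, 2.5 U/ml, 1 h at 37°C), which gave 8 libraries. The nucleases therefore also differed in dose, buffer and temperature. The names of the calls merged into each PPS give the nuclease and the replicate. Of the 138689 PPSs at day 0, among 460777 in the lists of 3 time points, 74534 held calls of ssRNase only, 42494 of dsRNase only and 21661 of both. PPSs of 20 to 40 nt, the range of ribosome footprints, were left out. This left 114907 PPSs, of which 63800 were ssRNase only, 29924 dsRNase only and 21183 of both kinds.

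In protein interaction profile sequencing (PIP-seq) a bound protein shields RNA from a nuclease, and the same RNA is cut once the protein is removed. A PPS is a stretch with more reads in the footprinting library than in the structure-only library of the same nuclease. A stretch that the nuclease could not cut even without protein gives no such contrast, so ssRNase reports protection of unpaired RNA and dsRNase protection of paired or stacked RNA. Messages in the cytoplasm carry ribosomes and proteins of translation and decay, while introns are found in unspliced RNA of the nucleus, where spliceosomal particles and hnRNP proteins bind.

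The ssRNase set of replicate 1 held 40806 PPSs and that of replicate 2 held 37587, and the dsRNase sets held 16403 and 18799. A PPS with calls of both replicates counts in both sets, so the spread between replicates given below is smaller than that of independent lists. The differences are ssRNase minus dsRNase within a replicate, given as mean ± SD over the 2 replicates. An exact paired test over 2 pairs cannot go below p = 0.5, so no p-value is given for them. The lists give no read depth for single libraries. All 10 erythroid marker genes examined, among them Gata1, Klf1 and Tal1, had exonic calls (199 in all), and none of the 15 markers of T cells, B cells, macrophages, fibroblasts and hepatocytes had any. The ssRNase set of replicate 2 stood apart in strand. Of its PPSs 69.6% lay on the plus strand, against 52.3% in ssRNase replicate 1, 49.99% in dsRNase replicate 1 and 49.5% in dsRNase replicate 2. The part of this strand excess in the results was not tested beyond the values given for each strand and for replicate 1 alone.

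The kinds of sequence behind these sets can be seen in high-scoring PPSs of 41 to 100 nt. They were called in both replicates of 1 nuclease and in no library of the other. Not every such PPS was eligible to be shown, so those printed need not be the highest-scoring of the genome. Sequences are from the GRCm38 assembly (the build mm10 names), on the strand of the transcript. Those that span a 5′ splice site follow because such sites were mostly ssRNase only, with the first 6 bases of the intron in capitals. They also had to touch coding sequence and no untranslated region. They lie in Pml, a nuclear body protein (chr9:58229309-58229385, minus strand, 31 nt of exon), Setdb1, a histone methyltransferase (chr3:95346573-95346656, minus strand, 42 nt of exon), and Tmem181a (chr17:6294960-6295052, plus strand, 75 nt of exon).
Pml: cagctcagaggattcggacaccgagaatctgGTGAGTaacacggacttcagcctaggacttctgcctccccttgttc
Setdb1: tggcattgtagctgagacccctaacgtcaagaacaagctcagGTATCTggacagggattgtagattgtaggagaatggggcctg
Tmem181a: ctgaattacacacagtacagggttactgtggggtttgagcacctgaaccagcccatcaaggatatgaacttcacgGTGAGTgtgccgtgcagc

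The next sequences lie wholly within coding sequence and are the 3 highest-scoring of each nuclease among eligible PPSs, not among all PPSs. Every G is in capitals, since G content differed between the sets. They had to touch no untranslated region of any annotated transcript. The ssRNase ones lie in Hectd4 (chr5:121262522-121262605, plus strand, 29.8% G), Vps13d (chr4:145092205-145092257, minus strand, 22.6% G) and Zfp692 (chr11:58309392-58309440, plus strand, 32.7% G). The dsRNase ones lie in Sdcbp, the adaptor protein syntenin (chr4:6393637-6393728, plus strand, 17.4% G), Pcna, the sliding clamp of DNA replication (chr2:132251903-132251958, minus strand, 19.6% G), and Pus7, a pseudouridine synthase (chr5:23775884-23775963, minus strand, 30% G). Single PPSs thus overlapped in G content, and the sets differed in the mean.
Hectd4, ssRNase: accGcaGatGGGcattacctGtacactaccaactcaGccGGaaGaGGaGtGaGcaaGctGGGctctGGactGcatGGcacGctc
Vps13d, ssRNase: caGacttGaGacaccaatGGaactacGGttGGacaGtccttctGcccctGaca
Zfp692, ssRNase: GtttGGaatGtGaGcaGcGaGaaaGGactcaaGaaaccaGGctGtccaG
Sdcbp, dsRNase: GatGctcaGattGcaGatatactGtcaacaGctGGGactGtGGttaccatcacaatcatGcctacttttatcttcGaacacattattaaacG
Pcna, dsRNase: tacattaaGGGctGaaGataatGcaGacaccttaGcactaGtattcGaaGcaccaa
Pus7, dsRNase: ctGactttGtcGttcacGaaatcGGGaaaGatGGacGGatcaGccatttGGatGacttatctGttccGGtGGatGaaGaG

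The 3 highest-scoring eligible ssRNase PPSs inside introns follow, with the word GTGT, which was more frequent in ssRNase PPSs, in capitals. They lie in Ermard (chr17:15046865-15046949, plus strand), which holds it 1 time, Tbl1x (chrX:77530105-77530199, plus strand), which does not hold it, and Papola, the nuclear poly(A) polymerase (chr12:105788123-105788214, plus strand), which holds it 4 times.
Ermard: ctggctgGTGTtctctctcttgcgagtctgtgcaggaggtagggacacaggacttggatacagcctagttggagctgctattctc
Tbl1x: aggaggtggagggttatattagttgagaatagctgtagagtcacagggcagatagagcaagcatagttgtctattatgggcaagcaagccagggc
Papola: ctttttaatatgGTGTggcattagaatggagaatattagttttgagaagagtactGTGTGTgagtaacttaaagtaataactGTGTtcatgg

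The first question was where in transcripts each nuclease placed its sites. The ssRNase PPSs lay mainly in introns and the dsRNase PPSs mainly in the exons of messages. An intron was touched by 71.7% of ssRNase PPSs and 28.1% of dsRNase PPSs in replicate 1, and by 72.5% and 31.3% in replicate 2. The difference was 42.4 ± 1.69 percentage points (SD, n = 2). Counting only PPSs inside introns that touched no annotated exon, the shares were 53.1% and 13.9% in replicate 1 and 53.4% and 16.5% in replicate 2. The coding sequence (CDS) was touched by 25.1% of ssRNase and 53.0% of dsRNase PPSs in replicate 1, and by 25.8% and 52.0% in replicate 2, a difference of -27.03 ± 1.25 points. For 3′ UTRs the shares were 11.5% and 37.2%, then 10.9% and 34.2%, a difference of -24.5 ± 1.68 points. In all 3 classes the gap between the nucleases was more than 10 times the SD of the paired differences, and the Newcombe 95% interval of each replicate excluded 0 (for introns in replicate 2, 40.4 to 42.0 points). These intervals cover counting error only. On the plus strand alone the intron difference was 44.3 points and on the minus strand 39.2 points.

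**Figure D1:**
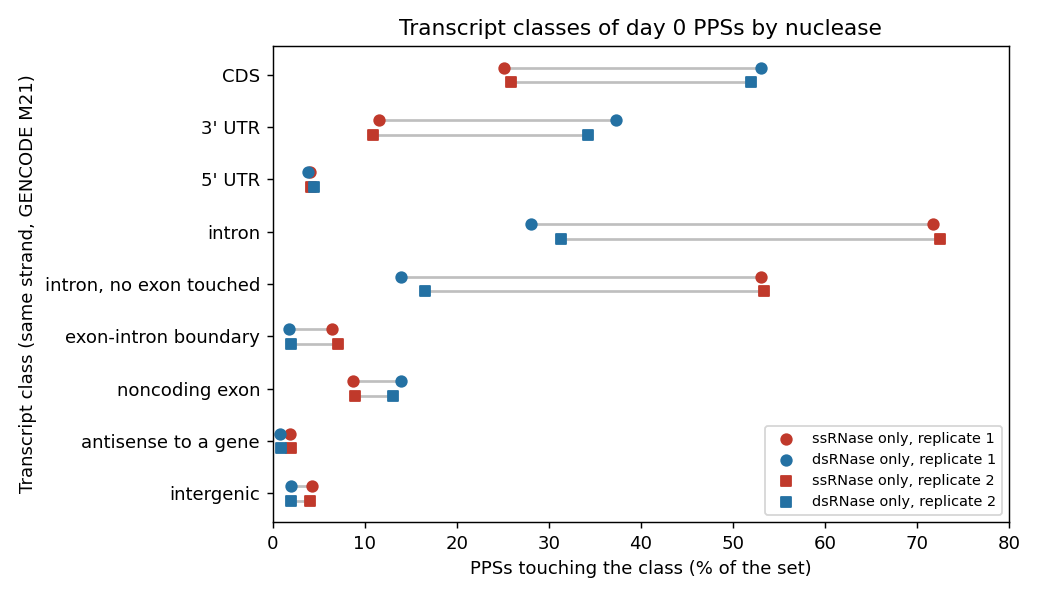
Share of day 0 PPSs touching each transcript class, in percent of the set on the x axis, for ssRNase-only (red) and dsRNase-only (blue) PPSs of replicate 1 (circles) and replicate 2 (squares), with a grey line joining the nucleases of 1 replicate. Introns were touched by 71.7% and 72.5% of ssRNase PPSs against 28.1% and 31.3% of dsRNase PPSs, and the order was turned for CDS and 3′ UTR.

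5′ UTRs did not separate the nucleases by this count. They were touched by 4.02% of ssRNase and 3.804% of dsRNase PPSs in replicate 1 and by 4.15% and 4.52% in replicate 2, so the sign differed between replicates. Exons of noncoding transcripts were touched by fewer ssRNase PPSs (8.72% and 8.94%) than dsRNase PPSs (13.9% and 13.1%). Such exons include noncoding isoforms of coding genes. Antisense RNA went the other way, with 1.91% and 2.00% of ssRNase PPSs on the strand opposite a gene against 0.756% and 0.899% of dsRNase PPSs. Intergenic PPSs made up 4.22% and 4.03% of the ssRNase sets and 1.94% and 2.02% of the dsRNase sets. Exons of small RNA genes were rare in both, at 0.206% and 0.216% against 0.104% and 0.0957%.

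Sites across exon-intron boundaries were mostly ssRNase sites, and they lay on 1 side of the intron more than on the other. The 5′ splice site is where U1 small nuclear RNA pairs with the pre-mRNA, and the 3′ splice site follows the branch point and the polypyrimidine tract. A PPS was taken to span a splice site when it reached at least 5 nt past it on both sides. An annotated 5′ splice site was spanned by 2155 of 40806 ssRNase PPSs (5.28%) and 169 of 16403 dsRNase PPSs (1.03%) in replicate 1. In replicate 2 it was spanned by 2346 (6.24%) and 220 (1.17%). The difference was 4.66 ± 0.580 points. The 3′ splice site was spanned by 1.65% and 1.49% of ssRNase PPSs and by 0.994% and 1.16% of dsRNase PPSs. The ssRNase sets thus held more than 3 times as many PPSs over 5′ as over 3′ splice sites, while the dsRNase sets held nearly equal numbers (169 and 163, then 220 and 218). This comparison was chosen after the data were seen.

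Most ssRNase PPSs inside introns were far from exons. Their median distance to the nearest exon of the same strand was 1592 nt in replicate 1 and 1642 nt in replicate 2, and that of intronic dsRNase PPSs was 1509 and 1539 nt. Within 50 nt upstream of an exon lay 3.19% and 3.71% of the intronic ssRNase PPSs against 1.23% and 1.68% of the dsRNase ones. Within 50 nt downstream of an exon the shares were close, at 1.25% and 1.35% against 1.62% and 1.52%.

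Intronic sites also differed in how often a call recurred. Calls of both replicates were present in 22.2% of the 34151 intronic ssRNase PPSs (Wilson 95% interval 21.8 to 22.7) and in 5.46% of the 5106 intronic dsRNase PPSs (4.87 to 6.12). In the CDS the shares were alike, at 19.1% for ssRNase and 19.8% for dsRNase, and in 3′ UTRs they were 17.1% and 20.7%. The median score of intronic dsRNase PPSs was 5.4, the lowest score in the list. When PPSs of each nuclease were restricted to those with calls of both replicates, the intron difference was 54.0 points.

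Genes with intronic PPSs of each nuclease were also counted. Among genes that could be assigned without overlap, 4736 had intronic ssRNase PPSs and 2157 had intronic dsRNase PPSs, and 1917 had both, which is 88.9% of the latter and 40.5% of the former. These genes held 33084 intronic ssRNase PPSs and 4952 dsRNase PPSs. No share over all genes was computed, so this overlap is a description only. The introns of 895 genes held 10 or more ssRNase PPSs, and those of 44 genes held 10 or more dsRNase PPSs. The genes with the highest numbers, named after their values were seen, are large. Lrmda (chr14:22019712-23056085, 1036 kb) held 828 intronic ssRNase PPSs and 118 dsRNase PPSs, with 530 and 584 in the ssRNase sets of the replicates and 58 and 71 in the dsRNase sets. St6galnac3, a sialyltransferase gene, held 306 and 55. The noncoding RNA gene Pvt1 held 198 and 21. Regulators of blood cell development were among them, with 188 and 45 in Runx1 and 157 and 17 in Bcl11a, a repressor of fetal globin genes. Rai1 held 135 ssRNase and 6 dsRNase PPSs. Intron length and transcript level were not accounted for in these numbers.

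The spliced message was then examined base by base. In 8244 protein-coding messages with a PPS (the transcript with the longest CDS of each gene), the share of 5′ UTR bases inside a PPS was 3.63% and 3.34% in the ssRNase sets and 0.977% and 1.36% in the dsRNase sets. In the CDS the shares were nearly equal, at 3.89% and 3.66% against 3.51% and 3.86%. In the 3′ UTR the order was turned, with 1.22% and 0.979% against 2.48% and 2.53%. Protection by ssRNase was thus lowest in 3′ UTRs and that by dsRNase lowest in 5′ UTRs. The ssRNase sets hold more PPSs than the dsRNase sets, so the shape along the message is compared rather than the level.

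Within the CDS (500 nt or longer) ssRNase coverage declined from 5.19% and 4.69% in the first of 10 equal parts to 3.08% and 2.80% in the last. The dsRNase coverage was 2.94% and 3.52% in the first part and 3.57% and 4.10% in part 3. It was 3.10% and 3.33% in the part before the last and 3.90% and 3.95% in the last. Around the stop codon the nucleases also differed. In the last 100 nt of the CDS dsRNase covered 6.05% and 6.31% of bases and ssRNase 2.67% and 2.49%, ratios of 2.26 and 2.53. In the first 100 nt of the 3′ UTR the values were 4.997% and 5.01% against 1.85% and 1.62%, ratios of 2.70 and 3.10. The dsRNase profile peaked within 20 nt before the end of the CDS, at 6.68% in replicate 1 and 6.69% in replicate 2, and the ssRNase profile had no maximum there. At the start codon ssRNase was highest 20 to 40 nt into the CDS, at 5.63% and 4.84%, while dsRNase rose from 1.35% and 2.11% over the final 100 nt of 5′ UTRs to 3.55% and 4.43% over the first 100 nt of the CDS. PPSs of 20 to 40 nt are absent from these profiles.

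**Figure D2:**
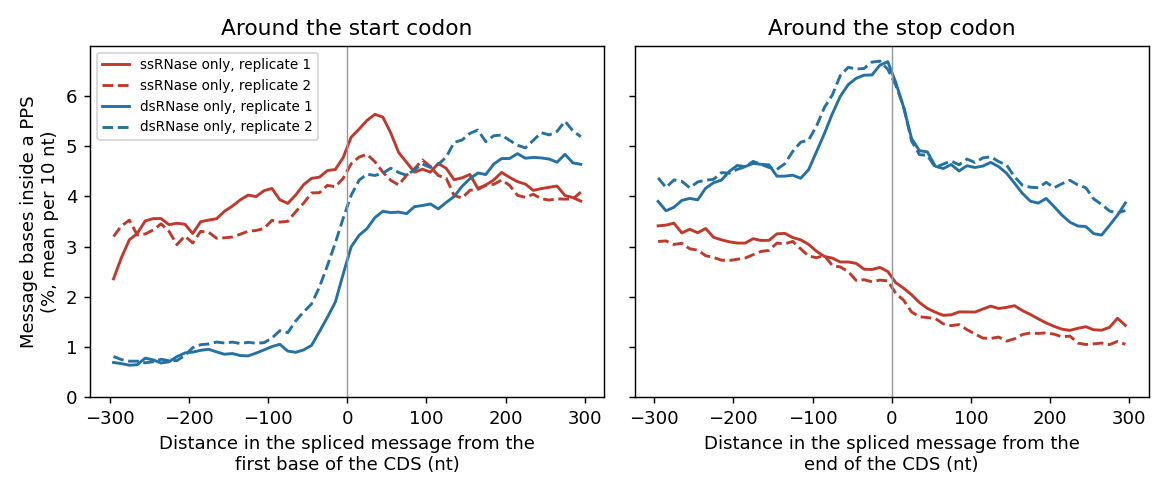
Percent of spliced message bases inside a PPS (y axis, mean per 10 nt) against the distance in nt from the start of the CDS (left) and from its end (right), for ssRNase-only (red) and dsRNase-only (blue) PPSs of replicate 1 (solid) and replicate 2 (dashed). The dsRNase lines reach 6.68% and 6.69% just before the stop codon, where the ssRNase lines fall, and the ssRNase lines are above the dsRNase lines upstream of the start codon.

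Protected sites of ssRNase were longer, by more in introns than in the CDS or 3′ UTRs. The median length was 65 nt in both ssRNase sets and 58 and 56 nt in the dsRNase sets, a difference of 8.0 ± 1.41 nt. The quartiles were 53 and 85 nt against 49 and 75 nt in replicate 1 and 53 and 84 nt against 48 and 72 nt in replicate 2. PPSs of 100 nt or more made up 14.7% and 14.9% of the ssRNase sets and 9.28% and 8.07% of the dsRNase sets. Inside introns the medians were 66 and 65 nt for ssRNase and 55 and 53 nt for dsRNase. Wholly within the CDS they were 59 and 59 nt against 58 and 56 nt, and within 3′ UTRs 59 and 59 nt against 59 and 58 nt. The class of 20 to 40 nt that was left out held 14.4% of ssRNase-only, 29.6% of dsRNase-only and 2.21% of shared PPSs, and with it kept the median difference was 10.5 nt. When the 4100 highest-scoring PPSs of each set were taken, the difference was 18.5 nt, and when every PPS with a call of a nuclease was used, shared PPSs included, it was 2.5 nt.

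**Figure D3:**
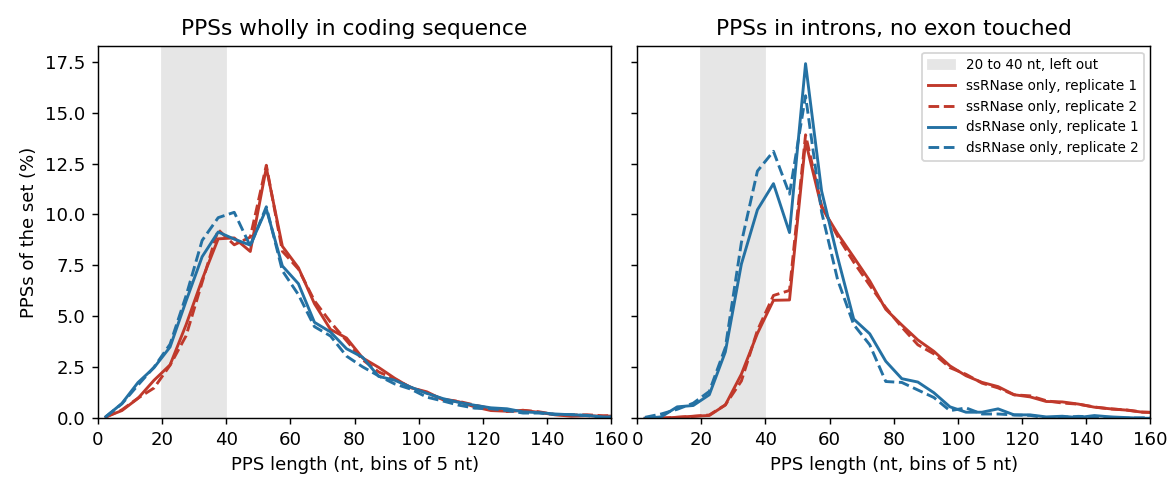
Percent of PPSs (y axis) in bins of 5 nt of PPS length (x axis) wholly within CDS (left) and inside introns (right), for ssRNase-only (red) and dsRNase-only (blue) PPSs of replicate 1 (solid) and replicate 2 (dashed), with the class of 20 to 40 nt shaded. The lines nearly coincide in the CDS, where medians were 56 to 59 nt, and part in introns, where medians were 66 and 65 nt for ssRNase and 55 and 53 nt for dsRNase.

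The bases of the protected RNA differed between nucleases, with more G in ssRNase PPSs and more A in dsRNase PPSs. G made up 27.8% and 28.2% of the bases of ssRNase PPSs and 24.3% and 25.1% of those of dsRNase PPSs, a difference of 3.36 ± 0.305 points. A made up 27.02% and 27.01% against 30.3% and 29.4%, a difference of -2.83 ± 0.623 points. C was lower in ssRNase PPSs by 1.38 ± 0.429 points, and T was higher by 0.855 ± 0.111 points. Since introns are poorer in G and C than exons, the comparison was repeated within classes. Within the CDS G was 29.9% and 30.2% against 25.4% and 26.1%, and G+C differed by 4.75 ± 0.547 points. Within 3′ UTRs G was 27.9% and 28.6% against 22.6% and 23.3%, and G+C differed by 6.43 ± 0.0813 points. Inside introns G was 26.99% and 27.3% against 24.04% and 25.04%, and G+C differed by 2.10 ± 1.00 points. The excess of G and the lack of A were present in both replicates of every class examined. The T difference had no such constancy, being positive in introns and negative in CDS and 3′ UTRs. The C difference had none either. In CDS and 3′ UTRs the G+C difference exceeded that of G (4.32 points in the CDS), so mean C was higher in ssRNase PPSs there. In introns the G+C difference was smaller than that of G (2.63 points), so mean C was lower. Over all PPSs the G+C difference was 1.98 ± 0.734 points.

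Short words also differed in frequency. AAAA occurred in 21.9% and 21.1% of ssRNase PPSs and in 30.8% and 26.9% of dsRNase PPSs, against 24.6% of all day 0 PPSs of these lengths. Within the CDS the AAAA shares were 18.2% and 17.3% against 28.9% and 25.8%. Inside introns they were 22.5% and 21.7% against 26.8% and 22.1%, so they were close in replicate 2. GGGG occurred in 16.3% and 16.2% against 10.7% and 10.4%, with 14.6% of all. GTGT, which is found in the GU-rich sites that CELF proteins bind, occurred in 30.4% and 31.1% against 21.2% and 21.3%, with 27.9% of all. CCCC was also more frequent in ssRNase PPSs, in 9.67% and 9.25% against 7.63% and 7.5004%, although C content over all PPSs was lower there. Inside introns it occurred in 7.40% and 7.02% against 3.85% and 4.26%. Words were searched on the transcript strand, overlapping occurrences included, and longer PPSs hold a word more readily. Counted per 1000 bases, AAAA was found 4.89 and 4.64 times in ssRNase and 9.03 and 7.65 times in dsRNase PPSs, GGGG 3.40 and 3.38 against 2.19 and 2.19 times, and GTGT 6.15 and 6.43 against 4.12 and 4.31 times. Within the CDS the GTGT values were 3.90 and 4.01 against 3.13 and 3.30 per 1000 bases, and inside introns 6.92 and 7.31 against 4.77 and 5.28. The Pumilio word TGTANATA did not separate the sets (0.136 and 0.143 against 0.149 and 0.143 per 1000 bases).

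The 100 nt around the centre of an ssRNase PPS were predicted to fold more stably. The minimum free energy from RNAfold was -22.9 and -23.0 kcal/mol for ssRNase PPSs and -20.8 and -21.5 kcal/mol for dsRNase PPSs, a difference of -1.77 ± 0.388 kcal/mol. The spread among PPSs was wide (SD of 6.97 to 7.57 kcal/mol within a set). The difference was -3.44 ± 0.338 kcal/mol within the CDS, -4.10 ± 0.0248 within 3′ UTRs and -1.23 ± 0.453 inside introns. Folding energy moves with G+C, so windows were also compared at like G+C content. At a window G+C of 50 to 60% the differences in the replicates were -1.70 and -1.66 kcal/mol within the CDS and -0.769 and -0.683 inside introns. At 40 to 50% they were smaller, at -0.334 and -0.578 kcal/mol within the CDS and -0.268 and -0.374 inside introns, and -1.02 in both replicates when all classes were pooled. In 2 strata the replicates differed in sign, CDS windows below 40% G+C (-0.269 and 0.0259 kcal/mol) and intron windows of 60% or more (0.214 and -1.21 kcal/mol, with 31 and 58 dsRNase PPSs). Bases of the PPS were predicted as paired in 57.6% and 57.6% of cases for ssRNase and 55.1% and 55.4% for dsRNase. These are predictions for naked sequence of the genome strand, intron and exon as they lie in the genome, and the measured structure profiles were not analysed here.

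**Figure D4:**
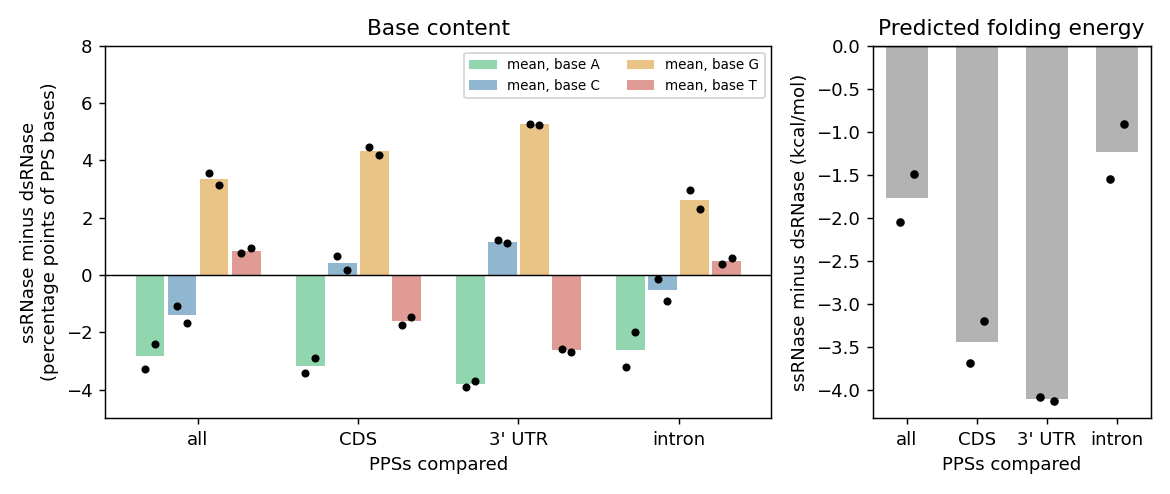
Difference between ssRNase-only and dsRNase-only PPSs in mean base content, in percentage points (left), and in predicted folding energy of the 100 nt around the PPS centre, in kcal/mol (right), over all PPSs and wholly within CDS, 3′ UTR or introns; bars are means of 2 replicates and dots the replicates. G is higher and A lower in ssRNase PPSs of every class, and the energy is lower by 1.23 to 4.10 kcal/mol.

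Sites protected from both nucleases were long, and their shares in introns, CDS and 3′ UTRs lay between those of the other kinds. The 21183 shared PPSs had a median length of 86 nt, and 38.9% and 38.7% of them in the replicates were 100 nt or longer. Introns were touched by 55.6% and 56.0%, the CDS by 43.2% and 43.4% and 3′ UTRs by 20.7% and 19.8%. 5′ UTRs were touched by 6.54% and 6.80% and exons of small RNA genes by 1.34% and 1.38%, more than in either of the other kinds. Exon-intron boundaries were crossed by 10.3% and 10.5%, more than in ssRNase PPSs (6.47% and 7.08%) or dsRNase PPSs (1.77% and 2.03%), though longer PPSs cross more boundaries. G content was 26.4% and 26.7%, between that of the other kinds. Since merged PPSs are longer by construction and more calls give more chances to hold both nucleases, these values are a description. Of PPSs that held ssRNase calls, 27.2% and 26.3% also held dsRNase calls, and of those with dsRNase calls, 41.1% and 42.4% also held ssRNase calls. A dsRNase-only PPS lay within 50 nt of 3.24% of ssRNase-only PPSs and within 200 nt of 8.87%. An ssRNase-only PPS lay within 50 nt of 6.76% of dsRNase-only PPSs and within 200 nt of 17.9%, and for dsRNase-only PPSs that touched no exon the share within 200 nt was 24.5%. The set of ssRNase-only PPSs is the larger one, so these shares are not alike by construction.

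The genes were then compared by the number of calls that touched their exons, relative to all calls of a set. In replicate 1, 5600 protein-coding genes had ssRNase-only PPSs in exons and 5294 had dsRNase-only PPSs, with 3647 in common (65.1% and 68.9%). In replicate 2 the numbers were 5240, 5569 and 3561 (68.0% and 63.9%). Of 3278 genes with at least 10 calls, limma voom with the replicate as a block called 0 as higher in ssRNase and 0 as higher in dsRNase at an adjusted p of 0.05, a background of 0% in both directions. The smallest adjusted p was 0.104. At an unadjusted p under 0.05, 67 genes (2.04%) were higher in ssRNase and 1071 (32.7%) in dsRNase. This fit has 1 residual degree of freedom. Without the block limma called 25 genes (0.763%) as higher in ssRNase and 795 (24.3%) as higher in dsRNase. The median log2 difference of all tested genes was -0.72, since 47.0% and 46.3% of ssRNase calls but 76.8% and 74.3% of dsRNase calls touched exons of the genes counted. When sets were scaled by their exonic calls the median was -0.03, and 12 genes (0.366%) and 5 genes (0.153%) were called with the block. Differences of single genes below are relative to all calls unless stated. The same sign in both replicates was seen for 497 genes (15.2%) toward ssRNase and 2010 genes (61.3%) toward dsRNase.

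The genes with the largest differences that kept their sign in both replicates, none of which passed the adjusted p, follow. Toward dsRNase they were messages with no ssRNase call, several of them for housekeeping proteins. Mtpn, which encodes myotrophin, had 0 and 0 ssRNase calls and 8 and 11 dsRNase calls, at least 11.2-fold higher in dsRNase against a floor of 3 calls over both ssRNase sets, and 11 of its 13 dsRNase-only PPSs touched its 3′ UTR (adjusted p = 0.104 by limma). Eif2s3x, a subunit of translation initiation factor 2, had 0 and 0 against 10 and 9 calls, also 11.2-fold higher against that floor. Mitochondrial proteins were Slc25a5, the ADP/ATP carrier (0 and 0 against 7 and 7 calls), Cycs, cytochrome c (0 and 0 against 8 and 6), and Atp5g3, a subunit of ATP synthase (0 and 0 against 7 and 6). The glycolytic enzymes were Tpi1 (0 and 0 against 8 and 6) and Aldoa (0 and 0 against 4 and 6). Rraga, a GTPase of nutrient signalling, had 0 and 0 against 5 and 6, Ola1 had 0 and 0 against 5 and 6, and Washc5, a subunit of the WASH complex, had 0 and 0 against 7 and 6. With no ssRNase call, these genes passed the filter of at least 10 calls through dsRNase alone. That filter sets the least fold against the floor, 5.90 in this direction. Processed pseudogenes that nearly match messages such as those of Slc25a5, Cycs and Tpi1 exist in the mouse genome, and reads with up to 10 hits were kept by the authors, so the counts of these genes are uncertain.

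The genes toward ssRNase had 0 to 2 dsRNase calls. Since the dsRNase sets hold fewer calls, floor values in this direction are smaller by construction and are not compared with those above. Telo2, which acts in the assembly of large kinases, had 8 and 4 ssRNase calls and 0 and 0 dsRNase calls. Against a floor of 3 calls over both dsRNase sets its ssRNase calls were 2.26-fold higher. Prpf40b, a pre-mRNA processing factor, had 5 and 7 against 0 and 0 calls, also 2.26-fold higher against that floor. Pkd1l3 and Parp6 each had 5 and 5 against 0 and 0, 1.88-fold higher against that floor. These 4 genes passed the filter of at least 10 calls through ssRNase alone. That filter sets the least fold against the floor, which is 1.88 in this direction. Scrib, a cell polarity scaffold, had 14 and 12 against 1 and 1 calls, 7.35-fold higher (exact 95% interval 1.84 to 63.9). BC005561 had 9 and 9 against 0 and 1, 10.2-fold higher (1.61 to 424). Usp40 and Snx32 each had 8 and 8 against 0 and 1. Vti1a, a vesicle SNARE, had 5 and 9 against 0 and 1, and Lrrc45 had 4 and 8 against 0 and 1. In Telo2, Prpf40b, BC005561, Snx32 and Lrrc45 most ssRNase-only PPSs touched the CDS. All 12 of Usp40 touched a 3′ UTR of some annotated transcript, and 8 of them also a CDS. The intervals cover counting error only.

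Gene lists chosen for this tissue and for RNA biology were described by their counts beside the median of -0.72 over all tested genes. No member of any list passed the adjusted p. For proteasome subunit genes, which build the protein-degrading complex, all 21 of 21 tested members had a higher dsRNase share in both replicates, with a median log2 difference of -1.77, against 61.3% of all tested genes. Over the whole list 52 PPSs were ssRNase only and 183 dsRNase only. Psmc5, an ATPase of the 19S particle, had 1 and 0 ssRNase and 9 and 5 dsRNase calls, and all 8 of its dsRNase-only PPSs touched the CDS. Psmd3 had 1 and 1 against 6 and 8 calls, and Psmd2 had 0 and 2 against 6 and 8.

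MCM genes, which include those for the subunits of the replicative helicase, were alike, with 6 of 7 tested members higher in dsRNase in both replicates and a median of -2.00. Among all tested genes 61.3% were higher in dsRNase in both replicates and 15.2% in ssRNase. Mcm4 had 5 and 2 ssRNase calls against 11 and 13 dsRNase calls, Mcm6 had 1 and 3 against 9 and 7, and Mcm2 had 1 and 2 against 6 and 5. For glycolysis genes 12 of 15 tested members were higher in dsRNase in both replicates and 2 in ssRNase, with a median of -2.18. Pgam1 had 2 and 1 against 8 and 8 calls. For translation initiation and elongation factors the median was -1.41, with 25 of 29 members higher in dsRNase. Eif4a3, the helicase of the exon junction complex, had 0 and 0 against 4 and 7 calls, 6.49-fold higher against the floor of 3 ssRNase calls. This gene, too, passed the filter of at least 10 calls through dsRNase alone. Eif1 had 1 and 1 against 5 and 5.

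Replication-dependent histone messages end in a stem-loop in place of a poly(A) tail. Over 67 annotated histone genes 17 PPSs were ssRNase only and 119 dsRNase only, of which 108 touched the CDS. Their summed calls were 32 and 23 for ssRNase and 79 and 136 for dsRNase, and the log2 ratio of the shares was -2.31 in replicate 1 and -3.21 in replicate 2. Only Hist1h1b had enough calls to be tested (1 and 3 against 5 and 4). Histone genes are near-identical copies, so the assignment of reads to single genes is uncertain and the summed values are given.

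The medians of RNA-binding protein genes were -1.03 for 25 hnRNP genes, -0.97 for 31 RNA helicase genes and -0.71 for 9 SR protein genes. Of these, 20 hnRNP, 26 helicase and 7 SR protein genes were higher in dsRNase in both replicates, against 61.3% of all tested genes, and 2, 2 and 1 were higher in ssRNase. Ptbp3, a regulator of splicing, had 4 and 4 ssRNase calls and 17 and 13 dsRNase calls, with 17 of its 19 dsRNase-only PPSs touching a 3′ UTR. Ddx3x had 8 and 5 against 18 and 21 calls, and Ddx21, a nucleolar helicase, had 4 and 2 against 10 and 15. Srsf2 had 10 and 7 against 10 and 14 calls, and 7 of its 10 dsRNase-only PPSs touched a 3′ UTR. Srsf10 had 8 and 5 against 8 and 10, and Srsf1 had 17 and 13 against 17 and 17. Cytosolic ribosomal protein genes had a median of -0.54, with 15 of 25 tested members higher in dsRNase and 5 in ssRNase in both replicates. These shares are close to those of all tested genes (61.3% and 15.2%). Their PPSs were as many for ssRNase (148) as for dsRNase (148), but 28 of the former and 111 of the latter touched the CDS. Rpl15 had 2 and 0 against 6 and 8 calls, Rpl23 1 and 1 against 4 and 4, and Rps7 1 and 1 against 4 and 4. Aminoacyl-tRNA synthetase genes had a median of -0.62 over 25 members, 15 of them higher in dsRNase in both replicates and 2 in ssRNase. The dsRNase share was again close to that of all tested genes (61.3%). Kars had 0 and 1 against 8 and 4 calls.

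Erythroid genes were modest in number of calls. Erythroid transcription factor genes had a median of -0.44 over 8 tested members, of which 4 were higher in dsRNase in both replicates and 0 in ssRNase. Among all tested genes these shares were 61.3% and 15.2%. Of the 8 members, 5 lay above the median of all tested genes (-0.72). Tal1 had 4 and 5 against 5 and 8 calls, Lmo2 4 and 5 against 6 and 6, and Myb 12 and 9 against 12 and 7. Heme synthesis genes had a median of -1.24 over 5 members. Alas2, the erythroid enzyme of the first step, had 0 and 2 against 5 and 3 calls, and Fech, the enzyme of the last step, 3 and 1 against 3 and 3. For red cell membrane and skeleton genes the median was -1.14 over 7 members, with Rhag at 4 and 4 against 7 and 9 calls and Sptb, beta-spectrin, at 9 and 7 against 9 and 15. Messages with an iron-responsive element, a hairpin bound by iron regulatory proteins, had a median of -1.89 over 4 tested members. Tfrc, the transferrin receptor, had 10 and 13 against 14 and 14 calls, with 7 of its 11 dsRNase-only PPSs in the 3′ UTR and 7 of its 8 ssRNase-only PPSs in the CDS. Selenoprotein messages, which carry a hairpin in the 3′ UTR, had a median of -1.24 over 4 members, and Selenot had 1 and 3 against 10 and 10 calls, with 10 of 13 dsRNase-only PPSs in the 3′ UTR.

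Nuclear long noncoding RNAs had more ssRNase than dsRNase calls by share of calls. Of 5 nuclear long noncoding RNAs tested, 4 had a higher ssRNase share in both replicates, against 15.2% of all tested genes, with a median log2 difference of 0.60. Kcnq1ot1, a transcript that silences its imprinted neighbours, had 142 and 105 ssRNase calls and 38 and 52 dsRNase calls, 1.55-fold higher by share of calls (exact 95% interval 1.21 to 1.997). Neat1, the scaffold of paraspeckles, had 53 and 43 against 11 and 18 calls, 1.87-fold higher (1.22 to 2.94), with 39 PPSs of ssRNase only, 3 of dsRNase only and 16 of both. Exons of Pvt1 had 11 and 8 against 3 and 1 calls. Of snoRNA host genes, which are spliced noncoding transcripts, 45 PPSs were ssRNase only and 8 dsRNase only, and 49 PPSs were of both. Their shares of calls were nearly equal, with a summed log2 ratio of -0.01 and 0.01 in the replicates and a median over 9 tested members of -0.01. In both replicates 3 of them were higher in ssRNase and 4 in dsRNase. The 3 with the largest differences were toward ssRNase. Snhg17 had 15 and 14 against 1 and 4 calls, 3.28-fold higher (1.25 to 10.85), Snhg20 5 and 6 against 1 and 2, and Snhg15 4 and 4 against 0 and 2. Genes of small nuclear and related RNAs had 4 ssRNase-only PPSs and 0 dsRNase-only PPSs, too few to compare. Transcript levels were not measured in these lists; both nucleases were applied to portions of the same sample.

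**Figure D5:**
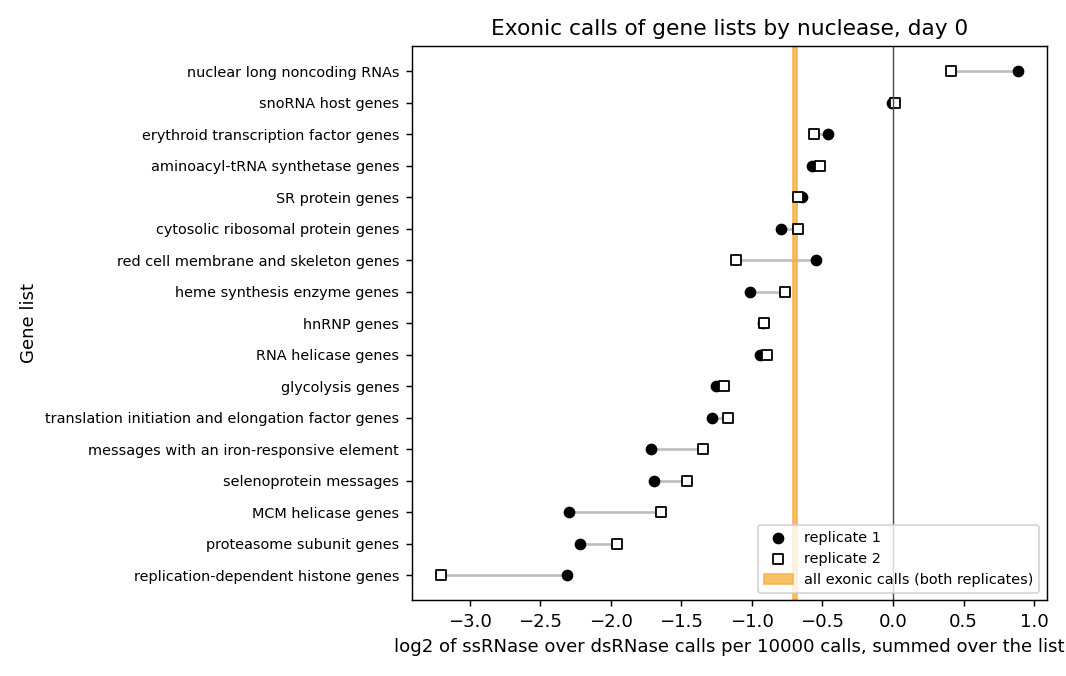
log2 of the ratio of ssRNase to dsRNase calls per 10000 calls (x axis), summed over the exonic calls of each gene list (y axis), in replicate 1 (filled circles) and replicate 2 (open squares); the orange band spans the value of all exonic calls in the 2 replicates (-0.71 and -0.68), and negative values mean a higher dsRNase share. Nuclear long noncoding RNAs lie above 0 in both replicates, and histone genes lie lowest in both, followed by MCM and proteasome genes.

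The highest-scoring PPS of each kind was long. For ssRNase it was 594 nt in an intron of Atp6v0a2, a subunit of the vacuolar proton pump (chr5:124710019-124710612, plus strand), with a score of 94.34 and calls of both replicates. For both nucleases it was 2449 nt in an intron of Pfkp, the platelet-type phosphofructokinase (chr13:6607857-6610305, minus strand), with a score of 449.2 and 13, 14, 8 and 4 calls in the ssRNase and dsRNase sets. For dsRNase it was 1646 nt on chr1:24613175-24614820, minus strand, over the pseudogenes Gm28437 and Gm10925, with a score of 226.7. Reads of near-identical copies elsewhere could be placed there, so this site is uncertain. Scores appear to be summed over merged calls, so length and number of calls enter them.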

How the data were processed

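PIP-seq was done in MEL cells. The 8 day 0 libraries were used (2 replicates, 2 nucleases, with and without protein). For the flagged results the day 2 and day 4 lists, collected after DMSO, were used as well. The authors trimmed reads with cutadapt 1.2.1, aligned them to mm10 with TopHat 2.0.10 keeping up to 10 hits, collapsed PCR duplicates and called PPSs with a modified CSAR at a false discovery rate of 5%. The deposited list merges all calls of the day and gives each PPS a score, the authors' enrichment value, which appears to be summed over merged calls; how libraries were scaled is not given in the sources used here. Call names, matched to sample titles, gave 4 call sets.

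All PPS ends lay inside GRCm38 chromosomes. Classes were taken from GENCODE M21 on the same strand (overlap of at least 1 nt, several classes allowed), sequences from the RefSeq copy of GRCm38, and folding from RNAfold 2.7.2 over the 100 nt at the PPS centre. Shares have Wilson or Newcombe 95% intervals, which cover counting error only. Exonic calls per gene (at least 10 over the sets, scaled to all calls of a set) were tested with limma 3.58.1 voom with the replicate as a block and Benjamini-Hochberg adjustment. The pairing comes from the series design, in which each replicate was split between nucleases; deviations between replicates correlated by 0.020 over 3278 genes. On simulated calls for this comparison 63 of 198 tested genes changed 8-fold were recovered and 6 unchanged genes were called. Alternatives changed which PPSs, calls, lengths, strands and genes entered and the gene fit.

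Named genes are the 10 with the largest differences in each direction among genes past the adjusted p with the same sign in both replicates; since none passed, they are those with the largest smaller replicate difference, without predicted genes, RIKEN genes, pseudogenes and genes sharing exons. The 3 tested members of each list with the largest difference and the highest-scoring PPS of each kind were added; some list members so named are not reported here. Members and lists were chosen with earlier results of these data known. Exons of mitochondrially encoded genes were not analysed here.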

Additional observations from a re-analysis of the deposited data

Results flagged for a closer look

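Of 34 measures of the PPSs, 5 had a nuclease difference (ssRNase minus dsRNase) of one sign in both replicates at day 0 and of the opposite sign in both replicates at day 4, after DMSO. Day 2 was searched in the same way, and no measure met this rule there. The measures of the 100 nt window (folding energy, paired bases and G+C) are counted among the 34. They were computed at day 0 only and could not be compared. The change between days was not tested, and replicates of different days are not linked. Mean T content differed by 0.855 points at day 0 and by -1.38 points at day 4 (-1.83 and -0.920 in the replicates). The dinucleotide CG was found less often in ssRNase PPSs at day 0 (-3.09 per 1000 bases) and more often at day 4 (4.49 per 1000 bases, 5.37 and 3.60 in the replicates). The word GAAG differed by -0.388 per 1000 bases at day 0 and by 2.17 at day 4 (2.17 in both replicates), and the word TCTT by 0.134 and -0.857 (-0.992 and -0.723 in the replicates). The share of PPSs on exons of small RNA genes differed by 0.111 points at day 0 and by -0.256 points at day 4.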

How the results depend on the processing

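All 6 differences between nuclease sets kept their sign under every alternative run. When every PPS holding a call of a nuclease was used, shared PPSs included, the differences (ssRNase minus dsRNase) were -19.3 points for CDS, 28.6 for introns, -16.5 for 3′ UTRs, 2.5 nt for median length and -1.25 kcal/mol for folding. With single-call PPSs they were -24.3, 37.1 and -21.2 points, 5.0 nt and -1.19 kcal/mol. With calls of both replicates they were -33.6, 54.0 and -32.0 points, 3.23 points of G+C and -3.06 kcal/mol. With the 4100 top-scoring PPSs of each set they were -34.7, 55.4 and -32.8 points, 18.5 nt, 3.77 points of G+C and -3.52 kcal/mol. With PPSs of 20 to 40 nt kept they were -25.6, 39.8 and -22.6 points and 10.5 nt. On the plus strand CDS and introns gave -28.4 and 44.3 points and on the minus strand -24.6 and 39.2. With at least 50% of the PPS in the class, introns gave 39.8 points. Wholly in the CDS the values were 2.0 nt, 4.75 points of G+C and -3.44 kcal/mol, and in introns 11.5 nt and -1.23 kcal/mol. With the PPSs of both replicates pooled and each PPS counted once, the intron difference was 40.1 points. The other 5 moved by less than the spread between replicates. Leaving out either replicate gave -27.9 to -26.2 points for CDS, 41.2 to 43.6 for introns, -25.7 to -23.3 for 3′ UTRs, 7.0 to 9.0 nt, 1.46 to 2.50 points of G+C and -2.04 to -1.49 kcal/mol.

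The counts of genes called by limma (ssRNase, then dsRNase) were 0 and 0 with the block, 25 and 795 without it, 10 and 330 with at least 20 calls, 62 and 795 with limma-trend, 4 and 85 with single-call PPSs, 59 and 1007 with PPSs of 20 to 40 nt kept, and 37 and 521 with strands fitted apart. They were 0 and 0 with at least 5 calls and with calls over gene bodies. Scaling by exonic calls, an alternative chosen after seeing the data, gave 12 and 5. The cause of these shifts was not tested. Without 1 replicate no residual degree of freedom remained and no gene could be tested. Of the named genes, Tal1 changed sign when calls over gene bodies were counted (log2 difference 0.11). The lists give no read depth for single libraries, so a PPS of 1 nuclease may have been missed rather than absent in the other.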

Other observations

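The length distributions of both nucleases had their highest 5 nt bin at 50 to 54 nt. Over all lengths that bin held 12.5% and 12.95% of ssRNase PPSs and 11.9% and 11.4% of dsRNase PPSs in the replicates, against 6.32% and 6.85% and 8.37% and 9.15% in the bin of 45 to 49 nt. Among intronic dsRNase PPSs it held 17.4% and 15.8%. The source of this step in the distribution was not tested.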
